A study of Mus musculus with 5 samples.

Results

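Histone lysine methyltransferases (writers) and lysine demethylases (erasers) were followed in IL-4-treated mouse macrophages that had received the PHGDH inhibitor CBR-5884 or solvent; PHGDH catalyses the opening step of serine synthesis. Members were the protein-coding mouse genes whose symbol starts with Kdm, Kmt2, Kmt5, Setd, Suv39h, Ehmt or Ezh, with Eed, Suz12 and Dot1l added. The rule found 45 genes, 27 writers and 18 erasers, among 49246 genes with a value in every library. In this set the PRC2 core subunits Eed and Suz12 are counted as writers, and every Kdm gene is counted as an eraser.

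Writers move a methyl group onto a histone lysine with S-adenosylmethionine (SAM) as donor, nearly all of them through a SET domain; DOT1L uses another fold. Erasers of the Kdm1 family remove methyl groups with flavin, and the JmjC erasers need iron, oxygen and alpha-ketoglutarate. SAM draws on one-carbon units that serine can supply, and the synthesis pathway that PHGDH opens also releases alpha-ketoglutarate. Methylation of H3K4 (lysine 4 of histone H3), H3K36 and H3K79 is typical of transcribed genes, and that of H3K9, H3K27 and H4K20 of silent or compacted chromatin. In macrophages the H3K27 eraser Kdm6b (JMJD3) is known for its part in the IL-4 program.

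RNA was sequenced from bone marrow-derived macrophages of wild-type C57BL/6 mice, grown from marrow with CSF1 or L929 cell supernatant. Of the 5 libraries, 3 came from cells given 30 µM CBR-5884 before IL-4 (replicates 3, 4 and 5) and 2 from cells given solvent before IL-4 (replicates 3 and 5). IL-4 was at 10 ng/ml and was present for 24 h in every library, so no untreated cells enter the comparison. The labels do not state the age or sex of the mice, how long the pre-treatment lasted, or what a replicate is (an animal, a culture or a repeat of 1 sample), so the spread behind each p-value may be technical only.

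The files implied 30230000 to 30700000 fragments per CBR-5884 library and 28310000 to 28850000 per solvent library. Across 14181 genes, Pearson's r between libraries lay at 0.982 to 0.983 for pairs of 1 group and at 0.978 to 0.98 for pairs across the groups. The summed level of 8 macrophage markers was 10040.6 to 13436.6 FPKM with CBR-5884 and 11655.8 to 13703.2 FPKM with solvent, and the markers of T cells, natural killer cells, B cells and red cells were at or near 0. Of the 8 macrophage markers 4 had positive and 4 negative log2 fold changes, with 0 called (limma). Every CBR-5884 library lay above both solvent libraries for 2 (25.0%) and below both for 2 (25.0%), beside 16.6% and 24.9% of all genes. The summed level of 4 monocyte markers was 3.64 to 4.33 FPKM with CBR-5884 and 8.15 to 8.90 FPKM with solvent, carried by the monocyte chemokine receptor Ccr2. The 1 monocyte marker that could be tested was called lower with CBR-5884 (log2 fold change -0.97, limma adjusted p = 0.0396). The summed level of 4 fibroblast and stroma markers was 10.7 to 16.7 FPKM with CBR-5884 and 17.4 to 18.3 FPKM with solvent, carried by the collagen genes Col1a1 and Col1a2, and that of 4 dendritic cell markers was 0.48 to 0.69 FPKM with CBR-5884 and 0.86 to 1.40 FPKM with solvent. The summed levels of endothelial and of neutrophil markers overlapped between groups. The 1 endothelial marker that could be tested lay lower in every CBR-5884 library, without a call (log2 fold change -0.26, limma adjusted p = 0.383). The part of other cell types in the results was not tested. In bulk RNA, fewer cells of a type and less RNA per cell cannot be told apart. Phgdh itself was low in both groups, at 1.08 ± 0.20 FPKM with CBR-5884 (SD, n = 3) and 1.28 ± 0.18 FPKM with solvent (SD, n = 2), with a log2 fold change of -0.13 and a limma adjusted p of 0.665.

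No histone lysine methylation enzyme passed the test. A level is given in FPKM, a fragment density per transcript length and library depth, added up over a gene's transcripts. Of the 45 members, 41 reached a mean of 1 FPKM and were tested with the 10769 genes above that mean, and 0 were called at an adjusted p below 0.05 (limma). Among all genes tested 24 were called, which is 0.223%; with CBR-5884, 5 were higher (0.0464%) and 19 lower (0.176%). Before adjustment, 2 members had a p below 0.05 on the higher side and 9 on the lower, beside 7.24% and 12.4% of all genes (780 and 1334 genes, or 1549 and 668 after rescaling to TPM, transcript shares of a fixed total). The 4 members below the mean were the H3K9 writer Suv39h2, listed at 0 in all 5 libraries, the Y-linked H3K4 eraser Kdm5d at 0.012 to 0.037 FPKM in the CBR-5884 libraries and 0.021 to 0.025 FPKM in the solvent libraries, Kdm4d at 0 to 0.042 FPKM and 0 to 0.015 FPKM, and Kdm8 at 0.752 to 0.909 FPKM and 0.851 to 0.857 FPKM.

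The median log2 fold change was -0.07 over 26 tested writers and 0.02 over 15 tested erasers, beside -0.03 over all genes tested. On the TPM scale the medians were 0.0058 for the writers, 0.06 for the erasers and 0.05 for all genes, so the sign of the writers' median rests on the scaling. The log2 fold change was negative for 17 writers (65.4%), for 7 erasers (46.7%) and for 55.7% of all genes. Every CBR-5884 library lay below both solvent libraries for 9 writers (34.6%) and 6 erasers (40%), beside 24.9% of all genes. Every CBR-5884 library lay above both for 1 writer (3.85%) and 3 erasers (20.0%), beside 16.6% of all genes. At an unadjusted p below 0.05 there were 7 lower and 0 higher writers, and 2 lower and 2 higher erasers. On the TPM scale the lower writers numbered 3, and median-ratio scaling and quantile normalization gave 5 each. Reference transcripts alone gave 3, the most abundant reference transcript 2 and coverage summed over the gene 9. The lower erasers numbered 1 under each of these scalings, 2 with reference transcripts alone, 0 with the most abundant transcript and 2 with summed coverage. The higher counts stayed the same in these settings. The difference between writers and erasers was not tested.

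**Figure D1:**
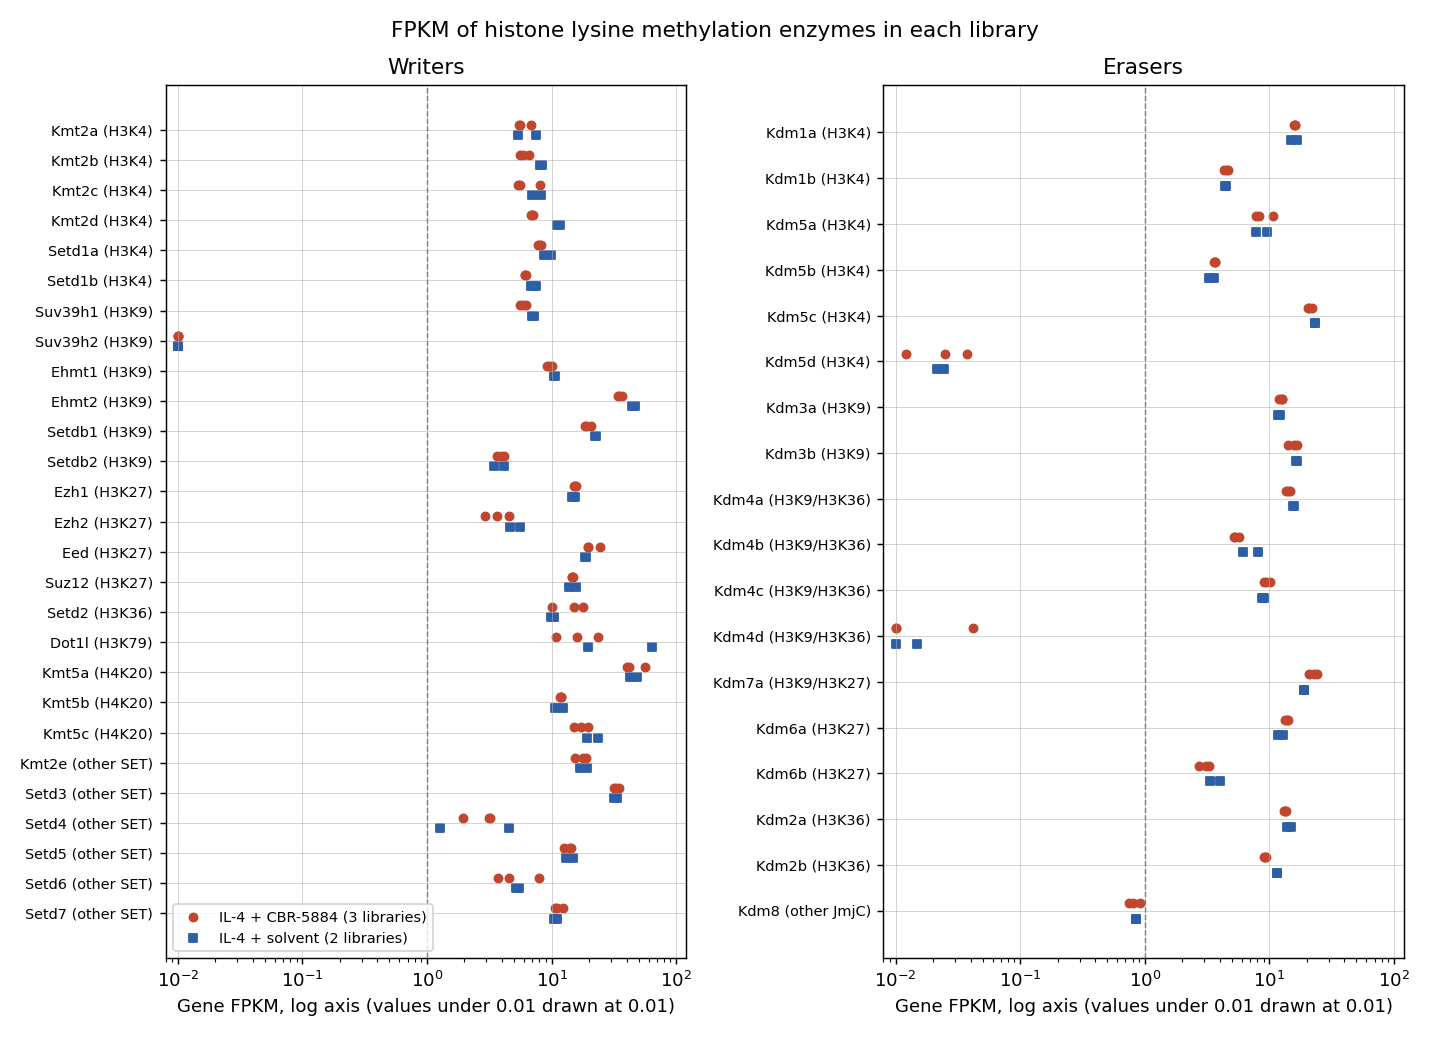
Gene FPKM of each writer (left) and eraser (right) in every library on a log axis, with the 3 CBR-5884 libraries as circles and the 2 solvent libraries as squares below them; the dashed line marks the mean of 1 FPKM needed for the test. Most members lie between 1 and 100 FPKM, Suv39h2, Kdm5d and Kdm4d lie far below the line, and the groups separate for Kmt2d, Kmt2b, Ehmt2 and Kdm2b but overlap for most members.

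The H3K4 writers all leaned to lower values with CBR-5884, without a call. MLL-type and SETD1-type enzymes work inside COMPASS complexes, SETD1A and SETD1B at promoters broadly, KMT2A and KMT2B at selected promoters, and KMT2C and KMT2D at enhancers. All 6 log2 fold changes were negative (median -0.22), beside 55.7% of all genes tested, and 4 had groups that did not overlap on the lower side, beside 24.9% of all genes. The median GC content of their transcripts was 57.8%, and among all genes tested with 55 to 60% GC the median log2 fold change was -0.14 and 78.0% of fold changes were negative.

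Kmt2d (chr15:98831669-98871204, minus strand, GRCm38) was at 7.02, 6.87 and 7.13 FPKM in the CBR-5884 libraries, against 11.1 and 11.6 FPKM in the solvent libraries. The CBR-5884 libraries lay close together and well below both solvent libraries. Its log2 fold change was -0.62 (SE 0.05), with a limma adjusted p of 0.0525, the smallest among the members. The set of listed transcripts differed as well. An assembled transcript of 13 exons was listed in the solvent libraries alone, at 3.61 FPKM (5689 nt) in replicate 3 and 4.58 FPKM (5671 nt) in replicate 5, while the reference transcript of 19823 nt was at 4.17, 3.17 and 4.91 FPKM with CBR-5884, against 4.15 and 4.80 FPKM with solvent. When read coverage was summed over the whole gene, a measure added after the data were seen, Kmt2d was at 7.13, 6.91 and 7.15 FPKM of gene length with CBR-5884, against 8.62 and 8.32 with solvent, a log2 fold change of -0.23 (SE 0.04, limma adjusted p = 0.0771).

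Kmt2b (chr7:30568858-30588726, minus strand) was at 5.61, 6.55 and 5.90 FPKM with CBR-5884, against 8.02 and 8.39 FPKM with solvent. Its groups did not overlap either, with a log2 fold change of -0.39 (SE 0.08, limma adjusted p = 0.133). Setd1a was at 7.74, 7.95 and 8.16 FPKM with CBR-5884, against 9.90 and 8.66 FPKM with solvent. Setd1b was at 6.09, 6.11 and 6.25 FPKM with CBR-5884, against 7.54 and 6.89 FPKM with solvent. Both SETD1 genes lay lower by 0.20 on the log2 scale, and their limma adjusted p-values were 0.25 and 0.203. With reference transcripts alone the direction turned for Kmt2b (0.01) and Setd1a (0.22), and with the most abundant reference transcript for Setd1b (0.01). Setd1a shares 3523 nt of exons with Gm49388 on the same strand, and reads of the pair cannot be told apart.

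The other 2 H3K4 writers overlapped between groups. Kmt2a ranged over 5.43 to 6.87 FPKM with CBR-5884 and 5.39 to 7.50 FPKM with solvent, a log2 fold change of -0.09 that was 0.12 without solvent replicate 3. Kmt2c ranged over 5.35 to 8.03 FPKM with CBR-5884 and 6.94 to 8.27 FPKM with solvent, a log2 fold change of -0.25 that was -0.04 when coverage was summed over the gene. The reference transcript of Kmt2c was listed at 0 in 4 of the 5 libraries, where assembled transcripts carried the whole value.

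**Figure D2:**
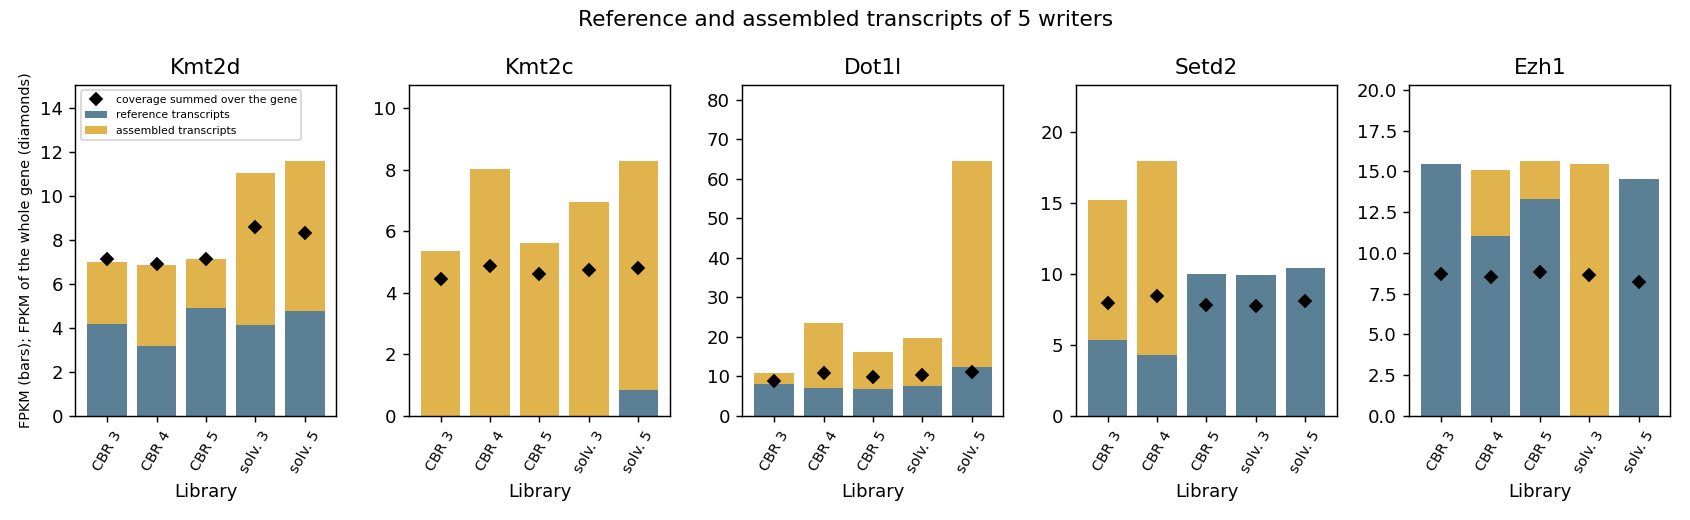
Gene FPKM of 5 writers in each library (CBR-5884 replicates 3, 4 and 5, then solvent replicates 3 and 5), stacked from reference transcripts (blue) and assembled transcripts (yellow), with the FPKM of the whole gene from summed coverage as diamonds. The diamonds of Kmt2d lie lower in all 3 CBR-5884 libraries than in both solvent libraries, those of the other 4 writers overlap between the groups, and those of Dot1l run between 8.90 and 11.1 where its bars run between 10.9 and 64.5.

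The H3K9 writers also had mostly negative fold changes, none called. EHMT1 and EHMT2 (GLP and G9a) form the complex that sets H3K9 mono- and dimethylation in gene-rich chromatin, SUV39H1 and SUV39H2 set trimethylation in heterochromatin, and SETDB1 silences repeats. The log2 fold change was negative, and the groups did not overlap, for 4 of the 5 tested genes, and the median was -0.22; of all genes tested 55.7% were negative and 24.9% had groups that did not overlap on the lower side. GC content was 60.2% for Ehmt2, 52.0% for Ehmt1, 50.6% for Suv39h1 and 49.2% for Setdb1. The share of negative fold changes among all genes tested was 81.9% above 60% GC, 67.1% from 50 to 55% and 49.4% from 45 to 50%.

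Ehmt2 (chr17:34898469-34914052, plus strand) was at 34.1, 35.1 and 36.9 FPKM with CBR-5884, against 46.3 and 44.4 FPKM with solvent. It was the second most abundant member after Kmt5a by mean FPKM over all libraries, and its value came from reference transcripts in every library. Its log2 fold change was -0.35 (SE 0.06), with a limma adjusted p of 0.119, and summed coverage gave -0.35 as well. Its partner Ehmt1 was at 9.46, 10.0 and 9.22 FPKM with CBR-5884, against 10.4 and 10.6 FPKM with solvent. The shift of Ehmt1 was smaller, at -0.12 on the log2 scale (SE 0.06, limma adjusted p = 0.322).

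Suv39h1 (chrX:8061171-8074760, minus strand) was at 5.88, 5.55 and 6.20 FPKM with CBR-5884, against 6.97 and 7.16 FPKM with solvent. Setdb1 (chr3:95323525-95357202, minus strand) was at 18.4, 19.0 and 20.6 FPKM with CBR-5884, against 22.5 and 22.8 FPKM with solvent. Both were lower in every CBR-5884 library, with log2 fold changes of -0.23 (SE 0.07, limma adjusted p = 0.185) and -0.22 (SE 0.06, limma adjusted p = 0.193). Suv39h1 overlaps Gm14820, an antisense gene, over 767 nt, and since the strand setting of the quantification is not given in the sources used here, their reads may not have been kept apart. Setdb2, a divergent relative of SETDB1, was at 3.65 to 4.16 FPKM with CBR-5884 and 3.42 to 4.17 FPKM with solvent, so the groups overlapped. With the most abundant reference transcript alone, the log2 fold change of Setdb1 was 0.08.

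Among the erasers, 2 genes stood higher in every CBR-5884 library at an unadjusted p below 0.05, and both encode erasers that act on H3K27. Kdm7a (chr6:39136623-39206789, minus strand), a PHD-finger JmjC enzyme for H3K9 and H3K27 dimethylation, was at 24.2, 23.0 and 20.8 FPKM with CBR-5884, against 18.8 and 19.0 FPKM with solvent. All of its value came from its 1 reference transcript, with a log2 fold change of 0.25 (SE 0.08, limma adjusted p = 0.207). Kdm6a (chrX:18162575-18279936, plus strand), known as UTX, was at 14.1, 13.5 and 13.8 FPKM with CBR-5884, against 11.7 and 12.8 FPKM with solvent. The log2 fold change of Kdm6a was 0.16 (SE 0.06), with a limma adjusted p of 0.25, and 0.10 without solvent replicate 3. With any 1 library left out, no more than 1 eraser kept an unadjusted p below 0.05 on the higher side. Kdm7a and Kdm6a have transcripts of low GC content, 39.6% and 42.5%; among all genes tested the median log2 fold change was 0.15 up to 40% GC and 0.08 from 40 to 45% GC.

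The third H3K27 eraser lay the other way. Kdm6b (chr11:69398508-69413675, minus strand) was at 3.09, 3.30 and 2.73 FPKM with CBR-5884, against 3.99 and 3.32 FPKM with solvent. Its highest CBR-5884 library and its lowest solvent library nearly touched, and the difference on the log2 scale was -0.20 with an SE of 0.11 (limma adjusted p = 0.393). Kdm6b has 59.6% GC, the highest of the tested erasers. Of 9 IL-4-induced genes with a literature link to Kdm6b, 8 log2 fold changes were negative, beside 55.7% of all genes tested. The list was also chosen with results of these data known. At an unadjusted p below 0.05 (limma), 4 of the 9 were lower and 1 was higher, beside 12.4% and 7.24% of all genes. Every CBR-5884 library lay below both solvent libraries for 8 of the 9 (88.9%), beside 24.9% of all genes. For the higher gene every CBR-5884 library lay above both (11.1% of the list), beside 16.6% of all genes. From this list 0 genes were called, and the lowest p belonged to Retnla and Arg1. Retnla, a secreted M2 protein, was at 1259, 1539 and 1619 FPKM with CBR-5884, against 5300 and 7587 FPKM with solvent (log2 fold change -2.11, limma adjusted p = 0.0666), and Arg1 was at 94.2, 102 and 80.1 FPKM with CBR-5884, against 305 and 225 FPKM with solvent (log2 fold change -1.50, limma adjusted p = 0.0859).

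The H3K36 erasers, KDM2A and KDM2B, bind unmethylated CpG-rich DNA, and KDM2B also brings a PRC1 complex to it. Kdm2b (chr5:122870665-122989823, minus strand) was at 9.05, 9.20 and 9.48 FPKM with CBR-5884, against 11.6 and 11.6 FPKM with solvent. The groups were far apart for their spread, with a log2 fold change of -0.30 (SE 0.05, limma adjusted p = 0.122, the smallest among the erasers). Kdm2b overlaps Rnf34 on the opposite strand over 627 nt, and the sources do not say whether reads of that stretch were assigned by strand. Kdm2a was at 13.3, 13.6 and 13.2 FPKM with CBR-5884, against 13.8 and 15.0 FPKM with solvent, a log2 fold change of -0.10 (SE 0.06).

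KDM4A, KDM4B and KDM4C remove trimethylation from H3K9 and H3K36. Kdm4a was at 13.7, 14.2 and 14.7 FPKM with CBR-5884, against 15.7 and 15.4 FPKM with solvent. Kdm4b was at 5.21, 5.68 and 5.26 FPKM with CBR-5884, against 6.11 and 8.06 FPKM with solvent. Both lay lower in every CBR-5884 library, by 0.13 for Kdm4a (SE 0.05) and 0.33 for Kdm4b (SE 0.12) on the log2 scale, with limma adjusted p-values of 0.293 and 0.252. For Kdm4b a single-exon assembled transcript of 1510 nt added 2.52 FPKM in solvent replicate 5, and summed coverage gave a log2 fold change of -0.10. The FPKM value of Kdm4b was -0.16 without solvent replicate 5 and -0.51 without solvent replicate 3. Kdm4c was at 10.2, 9.40 and 9.03 FPKM with CBR-5884, against 9.12 and 8.72 FPKM with solvent, which overlapped.

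The H3K4 erasers gave log2 fold changes near 0, apart from Kdm5c. The flavin enzymes Kdm1a (LSD1) and Kdm1b had log2 fold changes of 0.02 each, with ranges of 15.7 to 16.1 FPKM with CBR-5884 and 15.0 to 16.6 FPKM with solvent for Kdm1a, and of 4.36 to 4.68 FPKM with CBR-5884 and 4.43 to 4.47 FPKM with solvent for Kdm1b. Kdm5a spanned 7.83 to 10.7 FPKM with CBR-5884 and 7.86 to 9.67 FPKM with solvent. Kdm5b was at 3.66, 3.58 and 3.69 FPKM with CBR-5884, against 3.25 and 3.57 FPKM with solvent, and the nearest libraries of the groups all but met. The X-linked Kdm5c was at 20.4, 20.9 and 21.8 FPKM with CBR-5884, against 23.2 and 23.1 FPKM with solvent. Kdm5c lay lower in every CBR-5884 library by 0.13 on the log2 scale (SE 0.05, limma adjusted p = 0.258). The H3K9 erasers Kdm3a and Kdm3b overlapped between groups, at log2 fold changes of 0.05 and -0.08.

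**Figure D3:**
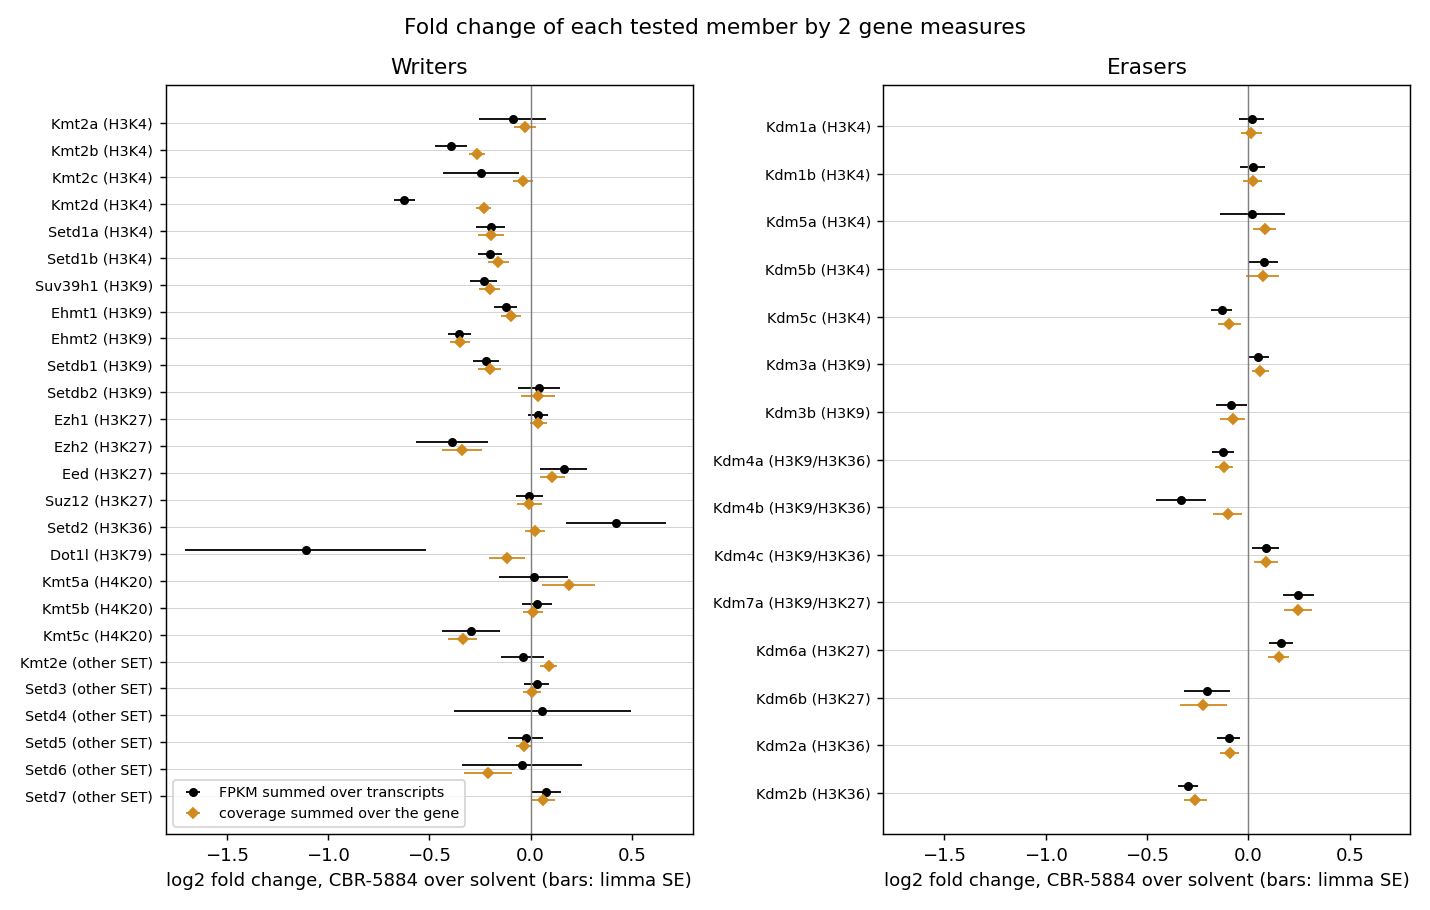
Log2 fold change (CBR-5884 over solvent) with limma's standard error for each tested writer (left) and eraser (right), from FPKM summed over transcripts (black circles) and from coverage summed over the gene (orange diamonds; Setd4 is under the filter there). The 2 measures lie close together for most members and apart for Dot1l (-1.11 and -0.12), Setd2 (0.42 and 0.02), Kmt2d (-0.62 and -0.23) and Kdm4b (-0.33 and -0.10).

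The PRC2 core showed no common direction. Ezh2 (chr6:47530139-47595341, minus strand), the catalytic subunit of dividing cells, was at 2.92, 4.58 and 3.64 FPKM with CBR-5884, against 4.68 and 5.55 FPKM with solvent. The nearest libraries of the groups lay close together on the FPKM scale, and the log2 fold change of -0.39 had an SE of 0.18 (limma adjusted p = 0.321). By coverage summed over the gene, Ezh2 lay at 1.15, 1.23 and 1.42 with CBR-5884, against 1.72 and 2.01 with solvent. On that measure Ezh2 had a log2 fold change of -0.34 (SE 0.10, limma adjusted p = 0.137). Its relative Ezh1, typical of non-dividing cells, was at 15.1 to 15.6 FPKM with CBR-5884 and 14.5 to 15.4 FPKM with solvent, above Ezh2 in every library on the FPKM scale. Eed was at 19.6, 24.5 and 19.6 FPKM with CBR-5884, against 18.5 and 19.0 FPKM with solvent, a log2 fold change of 0.16 (SE 0.11, limma adjusted p = 0.478) that was -0.04 with reference transcripts alone. Suz12 overlapped, at 14.5 to 15.0 FPKM with CBR-5884 and 13.9 to 15.7 FPKM with solvent.

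Markers of cycling cells had negative log2 fold changes, as Ezh2 did, with few calls. Of all genes tested 55.7% were negative and 0.176% were called lower. The log2 fold change was negative for 13 of 13 tested S phase genes (median -0.43), and 1 was called (limma): Mcm7, a subunit of the replicative helicase, which the 3 CBR-5884 files list at 0, against 7.33 and 8.15 FPKM with solvent. A deposited value of exactly 0 may stand for a failed estimate, and the call of Mcm7 rests on such values. Log2 fold changes were negative for 15 of 15 tested G2/M genes (median -0.76), and 1 was called: Ube2c, a mitotic ubiquitin-conjugating enzyme, at 0.51, 0.72 and 0.51 FPKM with CBR-5884, against 4.27 and 4.14 FPKM with solvent (log2 fold change -1.72, limma adjusted p = 0.0408). Every CBR-5884 library lay below both solvent libraries for 11 of the 13 S phase genes (84.6%) and 13 of the 15 G2/M genes (86.7%). The share among all genes tested was 24.9%. On the opposite strand Mcm7 overlaps Ap4m1 over 321 nt, and Ube2c overlaps Tnnc2 over 592 nt. Uhrf1, which ties DNA methylation to replication and reads H3K9 methylation, was at 0.71, 0.62 and 0.93 FPKM with CBR-5884, against 3.65 and 4.82 FPKM with solvent (log2 fold change -1.57, limma adjusted p = 0.0761). The part of cell cycling in the levels of Ezh2, Suv39h1 and other members was not tested.

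E2F sites are known to drive many replication genes, so RefSeq promoters (GRCm38.p6, 250 bases before to 50 after the start) were searched for TTTGGCGC, TTTCGCGC, TTTCCCGC and TTTGGCGG on both strands. Promoters were found for 37 members, 49 in all, and 3 of the 49 held a match, those of Ezh2, Kmt5c and Suz12; of all 32851 promoters 777 did (2.37%). The member promoters were richer in GC, with a median of 63.7% GC and 28 CpG against 52.7% and 7 over all promoters, which bears on a search for GC-rich letters. The 3 are shown because the PRC2 subunits Ezh2 and Suz12, with unlike fold changes, both carry a match; capitals mark it.
Ezh2, chr6:47594981-47595280, minus strand: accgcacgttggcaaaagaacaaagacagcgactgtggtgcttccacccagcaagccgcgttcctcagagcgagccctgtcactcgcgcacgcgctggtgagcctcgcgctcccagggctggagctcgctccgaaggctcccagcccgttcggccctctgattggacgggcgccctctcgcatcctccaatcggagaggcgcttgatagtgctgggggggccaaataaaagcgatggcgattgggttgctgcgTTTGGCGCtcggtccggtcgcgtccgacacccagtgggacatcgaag
Kmt5c, chr7:4739877-4740176, plus strand: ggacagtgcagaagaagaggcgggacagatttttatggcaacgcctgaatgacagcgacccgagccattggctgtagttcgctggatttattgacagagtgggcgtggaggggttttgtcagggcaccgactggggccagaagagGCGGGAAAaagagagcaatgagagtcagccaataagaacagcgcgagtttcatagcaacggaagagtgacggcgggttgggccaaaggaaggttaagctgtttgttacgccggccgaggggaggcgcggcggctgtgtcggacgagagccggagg
Suz12, chr11:79992856-79993155, plus strand: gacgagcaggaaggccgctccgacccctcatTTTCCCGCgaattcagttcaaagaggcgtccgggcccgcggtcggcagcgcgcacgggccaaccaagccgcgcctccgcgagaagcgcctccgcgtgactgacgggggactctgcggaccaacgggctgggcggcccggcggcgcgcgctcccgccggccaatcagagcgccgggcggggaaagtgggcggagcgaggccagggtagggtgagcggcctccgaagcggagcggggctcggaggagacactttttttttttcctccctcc
The log2 fold changes of the 3 genes were -0.39, -0.30 and -0.01. A match of letters is a description and not a bound site.

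The H3K36 writer Setd2 and the H3K79 writer Dot1l had the largest fold changes on the FPKM scale in each direction, and both came close to 0 when coverage was summed over the gene. Setd2 (chr9:110532597-110618633, plus strand), which trimethylates H3K36 along transcribed genes, was at 15.2, 17.9 and 10.0 FPKM with CBR-5884, against 9.95 and 10.5 FPKM with solvent, a log2 fold change of 0.42 (SE 0.25, limma adjusted p = 0.414) that was 0.25 without CBR-5884 replicate 4 and 0.64 without CBR-5884 replicate 5. The excess in CBR-5884 replicates 3 and 4 came from 2 partial assembled transcripts in each; by summed coverage the 5 libraries lay at 7.98, 8.42 and 7.79 with CBR-5884, against 7.73 and 8.12 with solvent, a log2 fold change of 0.02. Dot1l (chr10:80755206-80795461, plus strand) was at 10.9, 23.5 and 16.1 FPKM with CBR-5884, against 19.8 and 64.5 FPKM with solvent, a log2 fold change of -1.11 (SE 0.60, limma adjusted p = 0.379). Without solvent replicate 5 it was -0.28, and without solvent replicate 3 it was -1.94. In solvent replicate 5, single-exon assembled pieces of 238 and 203 nt were listed at 26.4 and 25.5 FPKM, and assembled transcripts made up 80.6% of the value. By summed coverage Dot1l lay at 8.90, 10.9 and 9.86 with CBR-5884, against 10.5 and 11.1 with solvent, a log2 fold change of -0.12. With the correction for GC content described below, the values stayed at 0.37 for Setd2 and -0.97 for Dot1l.

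The H4K20 writers divide the mark among them: KMT5A sets monomethylation, and KMT5B and KMT5C add the next methyl groups. Kmt5a was the most abundant member, at 40.5 to 56.6 FPKM with CBR-5884 and 42.6 to 48.3 FPKM with solvent, and Kmt5b was at 11.6 to 11.95 FPKM and 10.7 to 12.4 FPKM. Kmt5c was at 15.2, 17.2 and 19.8 FPKM with CBR-5884, against 23.7 and 19.4 FPKM with solvent. The groups of Kmt5c overlapped on the FPKM scale, with a log2 fold change of -0.30 (SE 0.14, limma adjusted p = 0.342) that was -0.16 without solvent replicate 3. By summed coverage they did not overlap, at 10.6, 9.28 and 10.8 with CBR-5884, against 13.3 and 12.9 with solvent. That measure gave Kmt5c a log2 fold change of -0.33 (SE 0.07, limma adjusted p = 0.0966). The correction for GC content described below gave -0.13 on the FPKM scale. Of the 6 remaining SET-domain genes 3 lay higher and 3 lower, and all overlapped between groups: Setd3, an actin histidine methyltransferase, at 31.8 to 34.8 FPKM with CBR-5884 and 31.5 to 33.6 FPKM with solvent, Setd7 at 10.7 to 12.3 FPKM and 10.5 to 11.1 FPKM, and Kmt2e, Setd4, Setd5 and Setd6 with log2 fold changes of -0.04, 0.06, -0.03 and -0.04.

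The fold changes of the members followed the GC content of their transcripts. Across the 41 tested members Spearman's rho between GC content and log2 fold change was -0.662 (Pearson's r -0.622), across the 26 writers -0.54, across the 15 erasers -0.921 and across 10733 genes tested -0.394. The points share the same 5 libraries, and genes are not independent replicates. Among all genes tested the median log2 fold change was 0.15 up to 40% GC, 0.08 from 40 to 45%, 0.00 from 45 to 50%, -0.08 from 50 to 55%, -0.14 from 55 to 60% and -0.19 above 60%. The libraries differed among themselves in this relation: rho between GC content and the deviation from the gene's mean over all tested genes was -0.303, -0.243 and -0.136 in the CBR-5884 libraries, against 0.43 and 0.186 in the solvent libraries. Treatment and this difference between libraries cannot be told apart.

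The coding stretches below show what such GC contents look like. Each is the middle 60 bases of the longest coding exon part of the most abundant reference transcript (GENCODE M21, GRCm38), with G and C in capitals. Ehmt2 and Kdm7a are shown as the tested members with the highest and lowest transcript GC content, Dot1l and Setd2 as those with the lowest and highest fold change, and Suv39h1 as a member that lay lower in every CBR-5884 library at a middle GC content.
Ehmt2, chr17:34899758-34899817, plus strand: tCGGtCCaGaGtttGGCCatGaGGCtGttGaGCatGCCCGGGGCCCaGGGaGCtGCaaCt
Kdm7a, chr6:39144395-39144454, minus strand: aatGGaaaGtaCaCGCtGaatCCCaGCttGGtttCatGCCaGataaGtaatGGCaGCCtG
Dot1l, chr10:80791056-80791115, plus strand: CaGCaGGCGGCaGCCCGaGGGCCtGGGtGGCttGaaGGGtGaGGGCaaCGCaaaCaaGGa
Setd2, chr9:110549321-110549380, plus strand: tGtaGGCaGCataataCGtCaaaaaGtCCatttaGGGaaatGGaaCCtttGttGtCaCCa
Suv39h1, chrX:8070889-8070948, minus strand: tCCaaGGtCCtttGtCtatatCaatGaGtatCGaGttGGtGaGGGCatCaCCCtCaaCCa
G and C made up 63.3% of the Ehmt2 stretch, 46.7% of the Kdm7a stretch, 66.7% of the Dot1l stretch, 40% of the Setd2 stretch and 46.7% of the Suv39h1 stretch. Whole transcripts had 60.2% for Ehmt2, 39.6% for Kdm7a, 57.5% for Dot1l, 44.3% for Setd2 and 50.6% for Suv39h1. A stretch can differ from its transcript, and the stretches of Suv39h1 and Kdm7a hold the same share of G and C although the fold changes of the genes have opposite signs.

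With the relation to GC content removed in each library by loess, a correction chosen after seeing the data, fold changes on the log2 scale came closer to 0 for 28 of the 41 tested members and moved further from 0 for 13. All 11 members with an unadjusted p below 0.05 came closer to 0. These 11 were picked by p in the uncorrected fit, which favours members that the correction shrinks. The share of all genes tested that came closer to 0 was not worked out, so neither count tells the members apart from other genes. At an unadjusted p below 0.05 there were then 5 lower and 0 higher writers, and 1 lower and 0 higher erasers, beside 7.24% lower and 7.02% higher of all genes under this correction. The corrected log2 fold change was -0.47 for Kmt2d (SE 0.06, limma adjusted p = 0.101), -0.23 for Kmt2b, -0.20 for Setdb1, -0.19 for Suv39h1, -0.18 for Ehmt2 and -0.21 for Kdm2b. It was -0.06 for Setd1a and -0.04 for Setd1b, and 0.12 for Kdm7a and 0.08 for Kdm6a. Among the members that moved further from 0 were Ezh2 at -0.44, Suz12 at -0.10, Ezh1 at 0.09 and Kdm1a at 0.08. Such a correction also removes any true difference that goes with GC content.

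**Figure D4:**
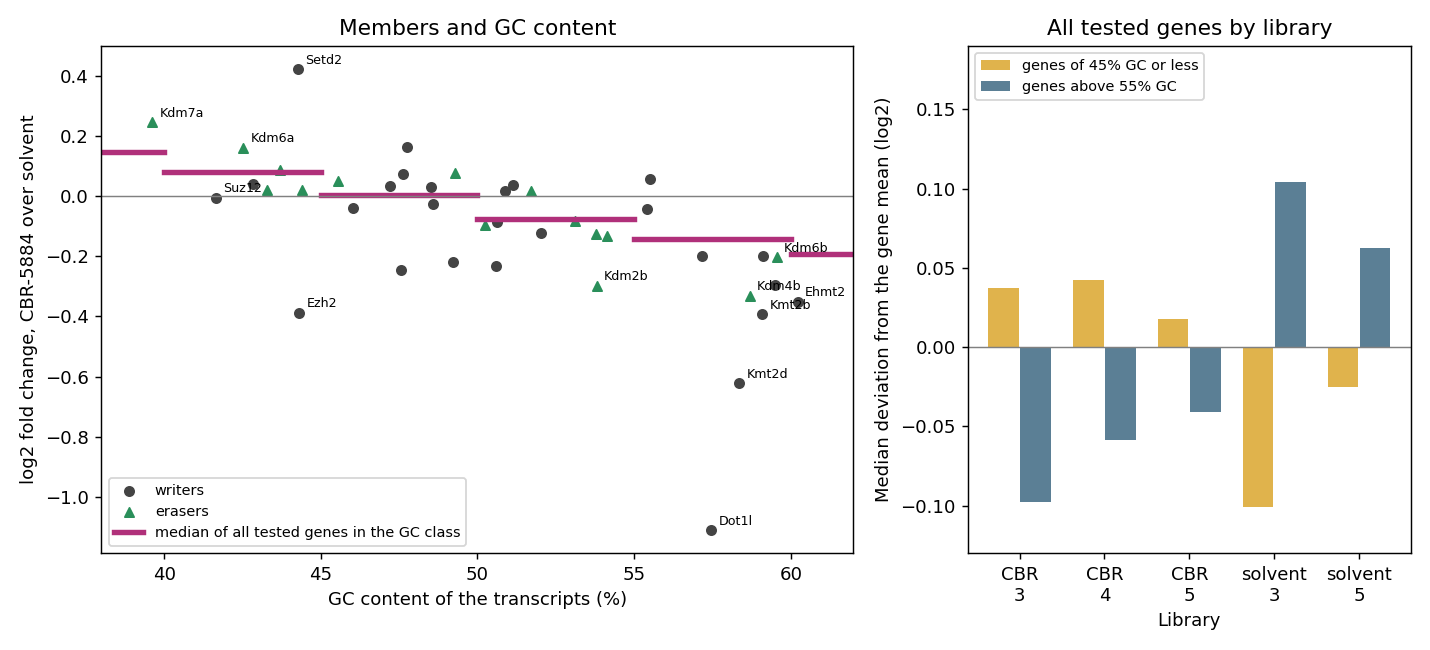
Left, log2 fold change (CBR-5884 over solvent) of each tested writer (circles) and eraser (triangles) against the GC content of its transcripts in percent, with bars for the median of all tested genes in each GC class, 0.15 up to 40% and -0.19 above 60%. Right, median deviation from the gene mean (log2) in each library for tested genes of 45% GC or less (yellow) and above 55% GC (blue); the GC-rich genes lie below 0 in all 3 CBR-5884 libraries and above 0 in both solvent libraries.

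The partners of these enzymes held no called gene, and no test was made of a list as a whole. The counts of each related list stand beside 55.7% negative log2 fold changes and 0.223% called among all genes tested. Of the tested COMPASS and MLL partners 6 were positive and 8 negative in log2 fold change (median -0.04) with 0 called (limma); by unadjusted p the leading genes were Men1, the menin subunit of the KMT2A and KMT2B complexes, at -0.26 (limma adjusted p = 0.215), and Ncoa6, of the KMT2C and KMT2D complexes, at 0.14 (0.244). Of 7 tested PRC2 partners 6 were negative, with a median of -0.07 and 0 called. Phf1, a Tudor protein that brings PRC2 to chromatin, was at 5.25, 5.45 and 5.11 FPKM with CBR-5884, against 7.16 and 7.08 FPKM with solvent (log2 fold change -0.37, limma adjusted p = 0.115); it has 60.3% GC and overlaps Cuta on the opposite strand over 1370 nt. The histone-binding subunit Rbbp7 had -0.23 (limma adjusted p = 0.332). Of 17 PRC1 subunits 10 were positive and 7 negative with a median of 0.02 and 0 called; Bmi1 and Pcgf3, both PCGF subunits, had 0.26 (limma adjusted p = 0.143) and 0.19 (0.223), with 39.0% and 43.7% GC.

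The partners of DOT1L split into 7 positive and 6 negative, with 0 called, led by Aff4, a scaffold of the super elongation complex, at 0.18 (limma adjusted p = 0.174) and Mllt6 at -0.23 (0.2). Of the LSD1, CoREST and NuRD partners 5 were positive and 9 negative with 0 called, led by the NuRD subunit Mta2 at -0.18 (limma adjusted p = 0.171) and the deacetylase Hdac1 at -0.20 (0.241). Of the heterochromatin readers and histone chaperones 5 were positive and 7 negative with 0 called, led by Daxx, a chaperone of histone H3.3, at -0.36 (limma adjusted p = 0.132) and Cbx5, the HP1 alpha protein that binds methylated H3K9, at -0.26 (0.177). Of 16 other lysine methyltransferases 5 were positive and 11 negative with 0 called, led by Nsd3 at 0.11 (limma adjusted p = 0.331) and Smyd5 at -0.13 (0.389).

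Among the JmjC proteins outside the Kdm names the lowest p belonged to Jmjd6, a lysyl hydroxylase. It was at 6.92, 7.68 and 8.99 FPKM with CBR-5884, against 20.8 and 22.8 FPKM with solvent, a log2 fold change of -1.37 (SE 0.12, limma adjusted p = 0.0573). The groups were far apart, but coverage summed over the gene was at 2.46, 2.73 and 3.19 with CBR-5884, against 4.11 and 4.36 with solvent, a narrower gap, and Jmjd6 overlaps Mettl23 on the opposite strand over 172 nt. Of the 13 tested JmjC proteins outside the Kdm names 11 were negative (84.6%, median log2 fold change -0.08) with 0 called, beside 55.7% negative among all genes. The other leading gene was Hr, an H3K9 eraser related to KDM3A. Hr was at 2.15, 3.64 and 3.40 FPKM with CBR-5884, against 4.63 and 5.66 FPKM with solvent (log2 fold change -0.61, limma adjusted p = 0.23).

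Genes that supply or share the methyl donor held no call either. Of 26 tested genes of SAM and alpha-ketoglutarate supply 21 were negative (80.8%, median log2 fold change -0.12) with 0 called, beside 55.7% negative among all genes. At an unadjusted p below 0.05 (limma) 30.8% were lower and 0% higher, beside 12.4% and 7.24% of all genes. Every CBR-5884 library lay below both solvent libraries for 46.2% and above both for 3.85%, beside 24.9% and 16.6% of all genes. Idh2, the mitochondrial isocitrate dehydrogenase that makes alpha-ketoglutarate, was at 27.7, 27.7 and 29.6 FPKM with CBR-5884, against 33.8 and 35.6 FPKM with solvent (log2 fold change -0.28, limma adjusted p = 0.132). Got1, a transaminase that links aspartate to alpha-ketoglutarate, had -0.16 (limma adjusted p = 0.177). Of 9 arginine methyltransferases, which draw on the same donor, 6 were negative with 0 called, led by Prmt1 at 30.9, 38.1 and 35.8 FPKM with CBR-5884, against 47.3 and 46.7 FPKM with solvent (log2 fold change -0.43, limma adjusted p = 0.154) and Prmt6 at -0.25 (0.172). Of 9 genes of DNA methylation and its removal 7 were negative with 0 called, led by Uhrf1, given above, and by the maintenance methyltransferase Dnmt1 at 15.9, 14.5 and 14.9 FPKM with CBR-5884, against 18.5 and 18.1 FPKM with solvent (log2 fold change -0.26, limma adjusted p = 0.142).

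**Figure D5:**
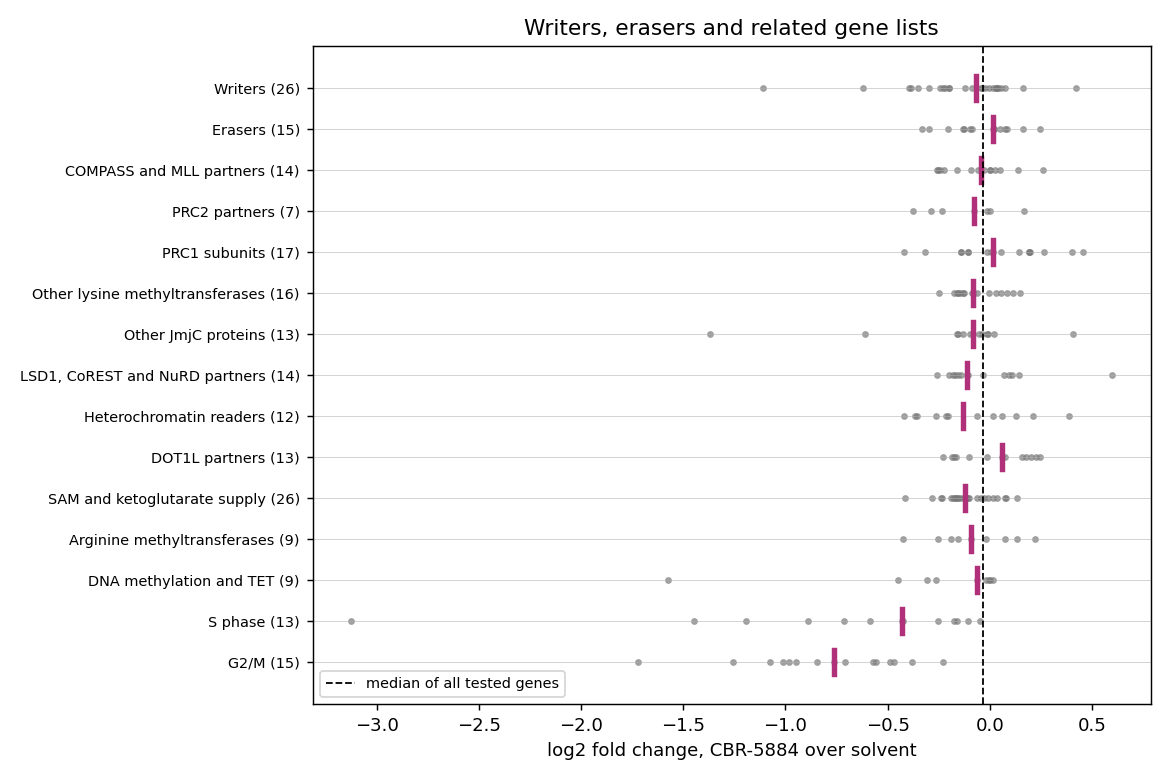
Log2 fold change (CBR-5884 over solvent) of every tested gene (grey points) in the writers, the erasers and 13 related gene lists, with the number of tested genes in brackets, the median of each list as a bar and the median of all tested genes, -0.03, as a dashed line. The S phase and G2/M lists have all points below 0 (medians -0.43 and -0.76), and the medians of the writers, -0.07, and erasers, 0.02, lie close to the dashed line.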

How the data were processed

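Total RNA was made into 5 directional libraries, and per the labels' protocols each was sequenced in 75 bp single reads. The submitters' processing notes name Bowtie2, TopHat2, Cufflinks and the genome build mm10 (GRCm38). Tool versions, annotation release and strand setting: not given in the sources used here. The deposited files list transcripts, both Ensembl reference transcripts and transcripts assembled in that library, each with an FPKM estimated by the authors and a 95% interval.

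GENCODE M21 gave the gene of 99.5% of the reference transcripts. Assembled transcripts of at least 200 nt were assigned to the gene on their strand that covered at least 50% of their exonic bases; the rest, 64.0 to 70.3% of the summed FPKM but 8.55 to 10.2% of the covered bases, were left out. Gene FPKM was the sum, and 96 genes without a value in some library were left out. Fragments per library were worked out from the ratio of deposited coverage to FPKM. Some deposited values of exactly 0 may stand for a failed estimate.

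Genes with a mean of at least 1 FPKM were tested on log2(FPKM + 1) with limma 3.58.1 in R 4.3.3 (two-sided moderated test with a mean-variance trend, Benjamini-Hochberg over all genes tested), with a call at an adjusted p below 0.05; the scale understates the change of low genes. The test was tried on simulated data. Coverage summed over the gene is FPKM times transcript length, summed and divided by the exonic length of the gene. GC content is that of the reference transcripts, weighted by FPKM, and the loess correction used a span of 0.3. Members, gene lists and the rule for named genes were chosen with earlier results of these data known. Named genes were every member, with full values for the 3 largest positive and negative fold changes of each class and for members whose groups did not overlap, and of each related list the called genes or else the 2 with the smallest p. Alternatives covered the pseudocount, filters, scaling, transcript choice, variance trend, replicate block and leaving out each library.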

Additional observations from a re-analysis of the deposited data

How the results depend on the processing

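No member was called by limma under any of 19 alternatives, the smallest adjusted p among members lying between 0.0511 and 0.331, and 16 of the 41 tested members kept their direction in every setting that could be computed, 12 lower (among them Kmt2d, Kmt2c, Ehmt1, Ehmt2, Suv39h1, Ezh2 and Kdm2b) and 4 higher (Kdm7a, Kdm6a, Kdm5b and Kdm4c). Of these 16, Kmt2c could be computed in 17 of the 19 settings, and Ezh2, Kdm6b and Kdm5b in 18. Kmt2c was under the filter in both settings built on reference transcripts, where most of the reversals occurred (11 and 15 members). The median log2 fold change of the writers was 0.0058 on the TPM scale, -0.032 with median-ratio scaling, -0.014 with quantile normalization, -0.20 with reference transcripts only, -0.036 with coverage summed over the gene and -0.037 with that and GC correction. The median of the erasers was -0.034 at a mean of at least 5 FPKM, 0.058 on the TPM scale, 0.053 with median-ratio scaling, 0.064 with quantile normalization, -0.020 with reference transcripts only and -0.032 with GC correction. Genes called higher among all tested numbered 3 with a pseudocount of 5, 3 at a mean of at least 5 FPKM, 8 on the TPM scale, 19 with reference transcripts only, 14 with the most abundant reference transcript, 22 with summed coverage and 19 with that and GC correction. Genes called lower numbered 33 without a filter, 6 at a mean of at least 5 FPKM, 40 with summed coverage and 29 with that and GC correction. Leaving out each library in turn gave 8 to 11 genes called higher, 11 to 78 called lower, a median of -0.12 to -0.080 for the writers and -0.10 to 0.016 for the erasers. At an unadjusted p below 0.05 it gave 3 to 6 writers and 1 to 2 erasers lower and 0 to 1 writers and 0 to 1 erasers higher, beside 963 to 1132 genes lower and 460 to 617 higher among all tested. Where a value changed, the cause was not tested.

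Single members turned direction as follows, on the log2 scale. A pseudocount of 5 gave -0.0036 for Setd4. The TPM scale gave 0.078 for Suz12, 0.043 for Kmt2e, 0.057 for Setd5 and 0.026 for Setd6. Median-ratio scaling gave 0.031 for Suz12 and 0.012 for Setd5, and quantile normalization 0.033 for Suz12, 0.0094 for Kmt2e, 0.017 for Setd5 and 0.0051 for Setd6. Reference transcripts only gave 0.014 for Kmt2b, 0.22 for Setd1a, -0.011 for Setdb2, -0.041 for Eed, -0.64 for Setd2, -0.45 for Kmt5a, -0.21 for Kmt5b, 0.23 for Kmt2e, -0.21 for Setd3, -0.040 for Setd7 and -0.29 for Kdm3a. The most abundant reference transcript gave 0.18 for Kmt2a, 0.099 for Kmt2b, 0.22 for Setd1a, 0.011 for Setd1b, 0.079 for Setdb1, -0.011 for Setdb2, -0.041 for Eed, -0.64 for Setd2, -1.52 for Kmt5a, -0.35 for Kmt5b, 0.42 for Kmt2e, -0.21 for Setd3, -0.040 for Setd7, -0.064 for Kdm1a and 0.18 for Kdm4a. Of the settings chosen after seeing the data, summed coverage gave 0.090 for Kmt2e, and GC correction -0.036 for Setdb2, 0.073 for Setd6, -0.032 for Kdm1b and -0.049 for Kdm5a. The 2 together gave 0.0097 for Kmt2a, -0.040 for Setdb2, -0.035 for Setd2, 0.022 for Dot1l, -0.00048 for Kmt5b, 0.061 for Kmt2e, -0.035 for Kdm1b and 0.049 for Kdm4b. Leaving out each library in turn, the values that changed sign spanned -0.088 to 0.077 for Suz12, -0.13 to 0.10 for Kmt5a, -0.31 to 0.15 for Setd6, -0.13 to 0.046 for Kmt2e, -0.59 to 0.70 for Setd4, -0.11 to 0.061 for Setd5, -0.11 to 0.15 for Kdm5a, -0.014 to 0.074 for Setd3, -0.29 to 0.12 for Kmt2a, -0.071 to 0.15 for Setdb2, -0.062 to 0.13 for Kmt5b, -0.0039 to 0.079 for Ezh1 and -0.053 to 0.084 for Kdm1a. Without a change of sign the values spanned -1.94 to -0.28 for Dot1l, -0.51 to -0.16 for Kdm4b, -0.43 to -0.16 for Kmt5c, 0.25 to 0.64 for Setd2, -0.41 to -0.13 for Kmt2c, 0.062 to 0.22 for Eed, -0.31 to -0.098 for Kdm6b, -0.28 to -0.11 for Setd1a, 0.10 to 0.22 for Kdm6a, -0.15 to -0.041 for Kdm2a and 0.024 to 0.13 for Kdm5b, among others.

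Replicate numbers 3 and 5 occur in both groups, but nothing in the labels pairs them, and the correlations of same-numbered deviations were 0.0701 and 0.0821. With 2 solvent libraries, whose deviations mirror each other, the unlike-numbered correlations were the same values with the opposite sign. They gave no separate comparison, so whether the numbers pair samples could not be judged from them. A fit with the number as a replicate block called 2 genes higher and 1 lower and no member, with a median of -0.10 for the erasers. It gave 0.038 for Kmt2e, -0.020 for Setd4, 0.028 for Setd5, 0.15 for Setd6 and -0.10 for Kdm5a. Number 4 occurs in the CBR-5884 group only, so the block takes up that library. The fold changes are then those found without CBR-5884 replicate 4, and these 2 of the 19 alternatives differ only in their p-values. With 3 and 2 libraries the groups are small, and values of exactly 0 and of short assembled transcripts limit what a gene FPKM can show.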
